A study of Mus musculus with 6 samples.

Results

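The voltage-gated sodium channel family was described in mouse primary neurons through 9 genes, which comprised 4 pore-forming alpha subunits (*Scn1a*, *Scn2a*, *Scn3a* and *Scn8a*), 2 beta subunits (*Scn2b* and *Scn3b*) and 3 FGF homologous factors (*Fgf12*, *Fgf13* and *Fgf14*). The genes were chosen by symbol among the 50508 symbols listed, and all 9 were found and had values above 0 in all 6 libraries. The symbol *Scn2a* was used in the data, rather than the older *Scn2a1*. RNA was compared between 3 libraries of neurons given a guide against the *Kcna1* promoter (sgKcna1, the Kcna1-dCas9A condition) and 3 given a guide against the bacterial LacZ gene (sgLacZ, the Ctrl-dCas9A condition). The study asked whether CRISPR activation (CRISPRa) could raise endogenous *Kcna1*, which encodes a potassium channel that limits action potential firing, and so make neurons less excitable.

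Neurons of both groups came from newborn C57Bl/6J pups and carried the same activator, a Cas9 without nuclease activity fused to VP160 and driven by the Ef1alpha promoter, delivered by lentivirus on the day after plating. The guide was therefore the only stated difference between the groups, and the Ef1alpha promoter is not restricted to neurons. The labels give the hippocampus as the source and the methods give cortical neurons. The age of the cultures at RNA extraction is stated in different ways in the methods. The methods state in general that experiments were repeated independently, but the sources do not say whether the 3 libraries of a group came from separate cultures or animals, so p-values measure only the spread between these libraries, which may be technical.

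In neurons, sodium channel alpha subunits form the pore that opens during the upstroke of the action potential, and they are concentrated at the axon initial segment by ankyrin G. Beta subunits are single-pass membrane proteins that bind the alpha subunits and alter their gating and surface expression. FGF homologous factors resemble fibroblast growth factors but stay inside the cell, where they bind the tail of the alpha subunits and modulate inactivation. The alpha subunits are also known for a developmental order in the rodent brain, in which *Scn3a* is strongest around birth and *Scn8a* becomes prominent at mature initial segments and nodes of Ranvier.

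Values are whole numbers per gene that sum to between 999047 and 999717 in each library, and they were read as rounded counts scaled to a common total (CPM). One tag is made per transcript end with the QuantSeq 3′ kit, so values were not divided by gene length. Reads per library are unknown, and so no counting interval is given. Between 14788 and 15417 genes were above 0 in each library. *Kcna1* had 16, 16 and 16 CPM in the sgLacZ libraries and 68, 47 and 65 in the sgKcna1 libraries, in the order of replicates 1 to 3. Its log2 fold change was 1.83 (SE 0.16, n = 3 per group, limma adjusted p = 0.034), with every sgKcna1 library above every sgLacZ library. It missed the adjusted threshold in limma without any 1 of the 5 libraries other than sgLacZ replicate 3 (log2 fold change 1.73 to 1.99, adjusted p 0.11 to 0.14). All fold changes given here are on the scale of log2(value + 1), sgKcna1 minus sgLacZ, on which the added 1 shrinks the difference for genes of low value.

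None of the 9 genes passed an adjusted p of 0.05 in limma (Benjamini-Hochberg over 19504 genes). The adjusted p ranged from 0.067 for *Fgf13* to 0.51 for *Scn2b*. Over all genes tested, 226 passed, which is 1.16%. Without sgLacZ replicate 3 limma called 2711 genes and 1 of the 9, *Fgf13*, and without each of the other 5 libraries it called 0 genes. At an unadjusted p under 0.05 there were 5 of the 9 genes, of which 2 were higher and 3 were lower in sgKcna1, against 23.2% of all genes tested. The same 5 genes were those whose groups did not overlap, in that every sgKcna1 library lay on one side of every sgLacZ library. Groups did not overlap for 22.2% of all genes tested, with 8.98% higher and 13.3% lower in sgKcna1. Among the 9751 genes with a mean of at least 5 CPM, as all 9 genes had, the share was 37.5%. The median log2 fold change was 0.22 over the 9 genes, -0.02 over all genes tested and -0.07 over those with a mean of at least 5.

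The 3 FGF homologous factors were lower in every sgKcna1 library than in any sgLacZ library. *Scn8a* and *Scn3b* were higher in every sgKcna1 library, and for *Scn1a*, *Scn2a*, *Scn3a* and *Scn2b* the groups overlapped.

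**Figure D1:**
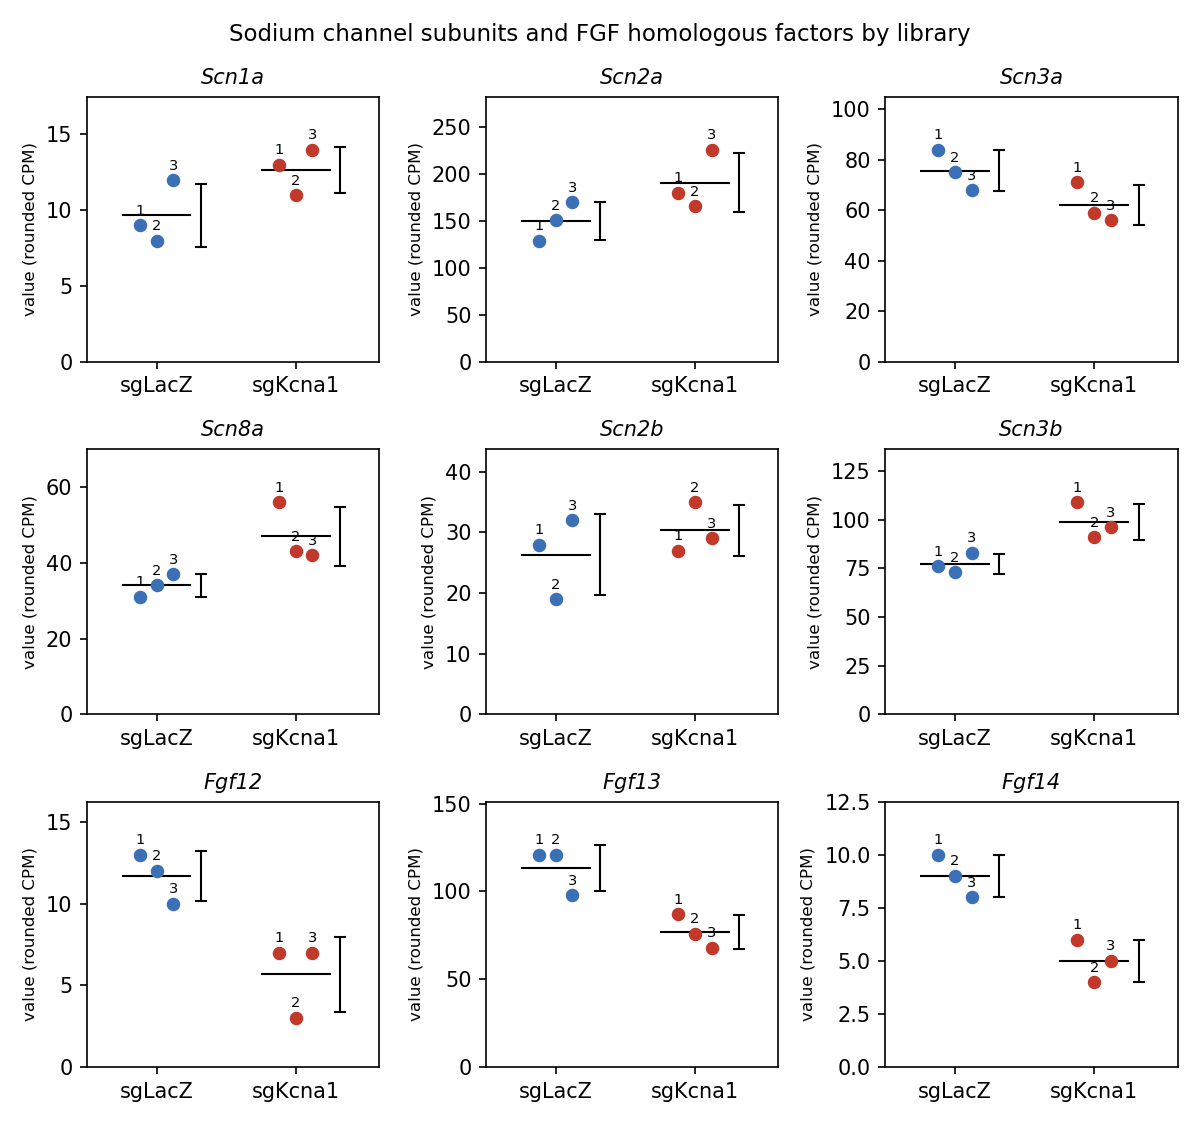
Value in rounded CPM (vertical axes, each from 0) of the 9 genes in the 3 sgLacZ libraries (blue) and the 3 sgKcna1 libraries (red), with the replicate number beside each point, the group mean as a line and the SD as a bar. The sgKcna1 points lie below all sgLacZ points for *Fgf12*, *Fgf13* and *Fgf14* and above them for *Scn8a* and *Scn3b*, and the groups overlap for the other 4 genes.

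*Fgf13* encodes the most abundant of the 3 factors here and is also known to bind microtubules. It had 121, 121 and 98 CPM in the sgLacZ libraries and 87, 76 and 68 in the sgKcna1 libraries. Its means were 113 ± 13.3 and 77.0 ± 9.54 (SD, n = 3 each), and its log2 fold change was -0.55 (SE 0.14, 95% interval -0.87 to -0.23, limma adjusted p = 0.067). The lowest sgLacZ library, replicate 3, stood closer to the highest sgKcna1 library than to the other sgLacZ libraries. Without sgLacZ replicate 3 the log2 fold change of *Fgf13* was -0.65 and its limma adjusted p was 0.036. It also passed when the test was kept to genes with a mean of at least 1 (limma adjusted p = 0.041) and when libraries were rescaled without the transcript Gm42418 (limma adjusted p = 0.032).

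*Fgf14*, whose mutation in humans causes an inherited cerebellar ataxia, had low values, at 10, 9 and 8 CPM in the sgLacZ libraries. In the sgKcna1 libraries it had 6, 4 and 5 CPM. The group means were 9.0 ± 1.0 and 5.0 ± 1.0 (SD, n = 3 each) and the log2 fold change was -0.75 (SE 0.21, 95% interval -1.25 to -0.24, limma adjusted p = 0.094). The groups were separated by a gap of 2 units on a scale rounded to whole units.

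*Fgf12*, another modulator of channel inactivation, had 13, 12 and 10 CPM in the sgLacZ libraries. It had 7, 3 and 7 CPM in the sgKcna1 libraries, where replicate 2 was the lowest. The log2 fold change was -0.99 with a wide error (SE 0.31, 95% interval -1.72 to -0.25, limma adjusted p = 0.11). It was the most negative fold change of the 9 genes, but its interval held the estimates of both *Fgf13* and *Fgf14*. Without sgKcna1 replicate 2 it was -0.66.

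Of the 5 genes with groups that did not overlap, the 4 with an entry are shown with the sequence before a listed transcription start. RefSeq (GRCm38.p6) held 15 promoter entries for 7 of the 9 genes, and *Scn3a* and *Scn3b* were not among them. Each line gives the 250 bases before a start on the strand of the gene, 5′ to 3′, with capitals marking the GC box (GGGCGG on either strand, thus also CCGCCC). The lines are the first entry of *Fgf12*, the second of 4 entries of *Fgf13*, and the first entries of *Fgf14* and *Scn8a*.
Fgf12, chr16:28753244-28753493, minus strand: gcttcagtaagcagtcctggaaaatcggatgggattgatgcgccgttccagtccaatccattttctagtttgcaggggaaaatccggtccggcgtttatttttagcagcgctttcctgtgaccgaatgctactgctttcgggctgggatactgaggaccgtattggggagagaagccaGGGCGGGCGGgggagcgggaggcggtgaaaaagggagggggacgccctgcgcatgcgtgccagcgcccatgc
Fgf13, chrX:59567349-59567598, minus strand: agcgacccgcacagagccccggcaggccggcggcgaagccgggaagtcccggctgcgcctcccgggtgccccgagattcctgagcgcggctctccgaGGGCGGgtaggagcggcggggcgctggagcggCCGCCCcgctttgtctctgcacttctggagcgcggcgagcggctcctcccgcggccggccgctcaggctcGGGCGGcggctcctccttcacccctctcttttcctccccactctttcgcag
Fgf14, chr14:124192547-124192796, minus strand: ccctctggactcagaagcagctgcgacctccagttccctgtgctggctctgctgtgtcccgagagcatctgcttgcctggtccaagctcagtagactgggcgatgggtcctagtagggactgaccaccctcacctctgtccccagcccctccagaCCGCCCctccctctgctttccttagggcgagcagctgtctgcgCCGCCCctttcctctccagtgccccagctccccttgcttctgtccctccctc
Scn8a, chr15:100870395-100870644, plus strand: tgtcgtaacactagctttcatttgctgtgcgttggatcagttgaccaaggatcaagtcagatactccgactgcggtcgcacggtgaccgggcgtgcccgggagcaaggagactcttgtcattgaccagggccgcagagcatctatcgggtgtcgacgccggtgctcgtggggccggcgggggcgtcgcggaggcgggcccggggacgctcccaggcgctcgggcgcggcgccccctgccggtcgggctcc

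The *Fgf12* window held 2 GC boxes that overlapped each other, the *Fgf13* window 3 and the *Fgf14* window 2, while the *Scn8a* window held 0. The second *Fgf13* entry was printed after the motif counts were seen, and the other *Fgf13* entries held 0, 0 and 4. A GC box was present in 6 of the 15 entries of the family and in 32.7% of 32851 promoter entries of the same length. GC content was 58.4% in the *Fgf12* window, 74.8% in the *Fgf13* window, 64.0% in the *Fgf14* window and 68.0% in the *Scn8a* window, against a median of 52.4% over all entries. It varied between entries of a gene, at 45.6%, 40.4% and 74.4% in the other *Fgf13* entries, 69.2%, 68.8% and 63.6% in the other *Fgf12* entries and 53.2% in the other *Scn8a* entry. The TATA box (TATAAA) was found in 1 of the 15 entries, the second of *Scn2a*, and in 12.4% of all entries. The cAMP response element TGACGTCA (1.55% of all entries) and the letters TCAGCACC from the left part of the REST element (1.32%) were found in 0 of the 15. Each motif was searched on both strands, a match is no evidence of binding, and a missing match says only that these letters are not in this window. Tags from the 3′ end do not tell which of several starts a transcript came from.

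*Scn8a*, the alpha subunit of mature initial segments and nodes, had 31, 34 and 37 CPM in the sgLacZ libraries. In the sgKcna1 libraries it had 56, 43 and 42 CPM, with replicate 1 the highest. Means were 34.0 ± 3.00 and 47.0 ± 7.81 (SD, n = 3 each), with a log2 fold change of 0.45 (SE 0.15, 95% interval 0.09 to 0.80, limma adjusted p = 0.13). Without sgKcna1 replicate 1 the log2 fold change was 0.32.

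*Scn2a* encodes the main alpha subunit of young axons and had the highest values of the family. It had 129, 151 and 170 CPM in the sgLacZ libraries and 180, 166 and 226 in the sgKcna1 libraries. The groups overlapped only in that sgKcna1 replicate 2 fell below sgLacZ replicate 3. The log2 fold change was 0.34 (SE 0.15, 95% interval -0.02 to 0.70, limma adjusted p = 0.24), and without sgKcna1 replicate 3 it was 0.21.

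*Scn3a*, the alpha subunit strongest around birth, was the only 1 of the 4 alpha subunits with a negative estimate. It had 84, 75 and 68 CPM in the sgLacZ libraries and 71, 59 and 56 in the sgKcna1 libraries. sgKcna1 replicate 1 lay inside the sgLacZ range. The log2 fold change was -0.29 (SE 0.13, 95% interval -0.60 to 0.03, limma adjusted p = 0.26), and after upper-quartile rescaling it was -0.17.

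*Scn1a*, the alpha subunit of fast-spiking inhibitory interneurons and the gene mutated in Dravet syndrome, was the lowest alpha subunit in all 6 libraries. It had 9, 8 and 12 CPM in the sgLacZ libraries and 13, 11 and 14 in the sgKcna1 libraries. The log2 fold change was 0.37 (SE 0.20, 95% interval -0.11 to 0.85, limma adjusted p = 0.31). A difference of this size was not resolved from the spread between libraries at these values.

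On the GRCm38.p6 assembly, *Scn3a* (chr2:65457118-65567591), *Scn2a* (chr2:65620764-65767447) and *Scn1a* (chr2:66270781-66440837) follow each other on chromosome 2, with 53172 bp between the annotated ends of *Scn3a* and *Scn2a*. The estimate was negative for *Scn3a* and positive for *Scn2a* and *Scn1a*, and all 3 intervals included 0. *Scn8a* lies apart at chr15:100869863-101045938. Although the alpha subunits are similar proteins, the last 500 bases of the transcripts of the 9 genes (GENCODE vM1) shared no word of 30 bases in any of 36 pairs, which bears on whether 3′ tags could be split between them.

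*Scn3b*, a beta subunit that binds the alpha subunit without a covalent bond, had 76, 73 and 83 CPM in the sgLacZ libraries. It had 109, 91 and 96 CPM in the sgKcna1 libraries, all above the sgLacZ libraries. Means were 77.3 ± 5.13 and 98.7 ± 9.29 (SD, n = 3 each), with a log2 fold change of 0.35 (SE 0.11, 95% interval 0.09 to 0.60, limma adjusted p = 0.12).

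*Scn2b*, a beta subunit joined to the alpha subunit by a disulphide bond, had 28, 19 and 32 CPM in the sgLacZ libraries and 27, 35 and 29 in the sgKcna1 libraries. The groups were interleaved. The log2 fold change was 0.22 (SE 0.21, 95% interval -0.28 to 0.72, limma adjusted p = 0.51), and it ranged from 0.01 to 0.37 when single libraries were left out.

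**Figure D2:**
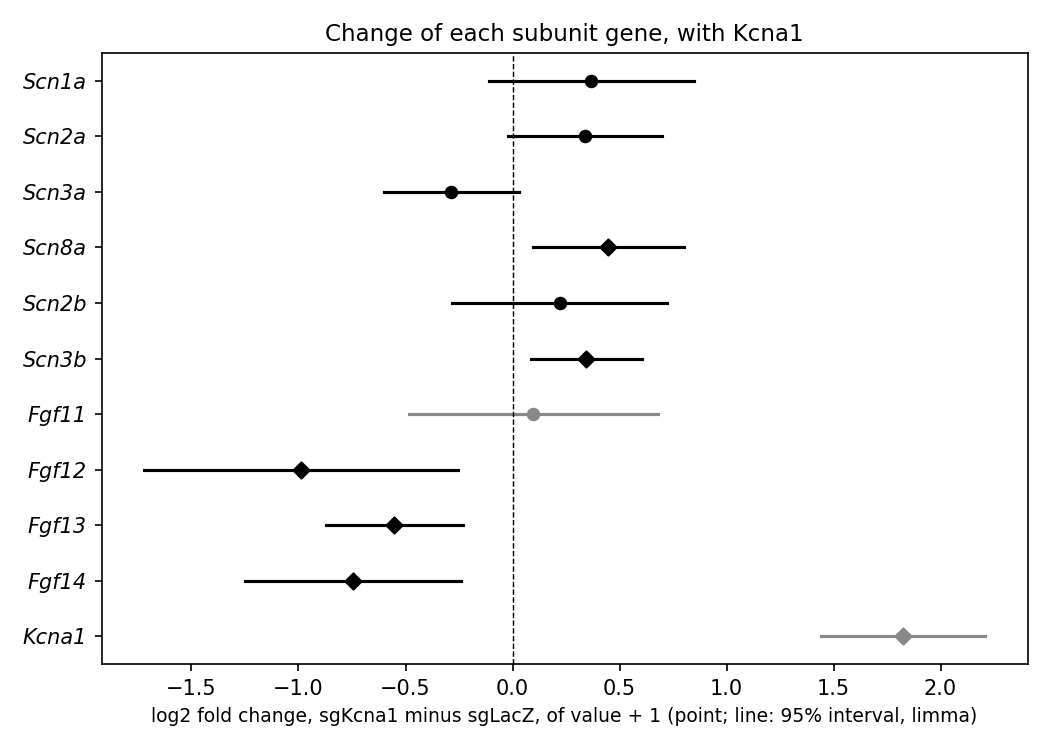
Log2 fold change of value + 1, sgKcna1 minus sgLacZ (horizontal axis), with its 95% interval from limma, for the 9 genes (black) and for *Fgf11* and *Kcna1* (grey). Diamonds mark genes whose groups did not overlap and circles those whose groups did. The intervals of *Fgf12*, *Fgf13* and *Fgf14* lie below 0, those of *Scn8a* and *Scn3b* above 0, and *Kcna1* lies at 1.83.

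The further members of the family described here were low or listed at 0. *Scn4a*, *Scn7a*, *Scn10a*, *Scn11a* and *Scn4b*, which are typical of skeletal muscle, glia or sensory neurons or, for *Scn4b*, of neurons with resurgent current, were listed at 0 in all 6 libraries. *Scn9a* was listed at 1 in sgKcna1 replicate 1 and at 0 in the other 5. *Fgf11*, the remaining FGF homologous factor, had 5, 7 and 4 CPM in the sgLacZ libraries and 5, 6 and 6 in the sgKcna1 libraries. Its log2 fold change was 0.10 with an interval of -0.48 to 0.68 (95%, limma), which overlaps the intervals of *Fgf12*, *Fgf13* and *Fgf14*, and whether it differed from the other 3 factors was not tested.

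Among the 9 genes the order of levels, in CPM with 1 tag per transcript end, differed between the groups for *Fgf13* and for *Fgf12*. In the sgLacZ libraries *Scn2a* was highest, followed by *Fgf13*, *Scn3b* and *Scn3a*, and the values of *Scn3b* and *Scn3a* overlapped. *Scn8a* and *Scn2b* followed and overlapped at a lower level, and *Fgf12*, *Scn1a* and *Fgf14* overlapped at the bottom. *Fgf13* exceeded *Scn3b* in each of the 3 sgLacZ libraries and was below *Scn3b* in each of the 3 sgKcna1 libraries, an order within a library that no rescaling of whole libraries can alter. In the sgKcna1 libraries the values of *Fgf13* overlapped those of *Scn3a*, *Scn3a* and *Scn8a* met at 56 CPM, and *Fgf12* and *Fgf14* overlapped at the bottom, with *Scn1a* above both in every library.

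Composition within a library was then described with no test. *Scn3a* made up 33.2%, 28.0% and 23.7% of the 4 alpha subunits in the sgLacZ libraries and 22.2%, 21.2% and 16.6% in the sgKcna1 libraries. These groups did not overlap, but sgLacZ replicate 3 and sgKcna1 replicate 1 were only slightly apart. *Scn2a* made up 51.0%, 56.3% and 59.2% in the sgLacZ libraries and 56.3%, 59.5% and 66.9% in the sgKcna1 libraries, and *Scn8a* made up 12.3% to 12.9% and 12.4% to 17.5%, so both overlapped. There were 0.369, 0.453 and 0.544 *Scn8a* units per unit of *Scn3a* in the sgLacZ libraries and 0.789, 0.729 and 0.750 in the sgKcna1 libraries. The *Scn8a* to *Scn3a* ratio was thus higher in every sgKcna1 library, although both genes missed the threshold in their own tests.

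The FGF homologous factors were set against the channels they bind in the same way. The sum of *Fgf12*, *Fgf13* and *Fgf14* was 144, 142 and 116 CPM in the sgLacZ libraries and 100, 83 and 80 in the sgKcna1 libraries. The sum of the 4 alpha subunits was 253, 268 and 287 in the sgLacZ libraries and 320, 279 and 338 in the sgKcna1 libraries, which overlapped. Factors per alpha subunit came to 0.569, 0.530 and 0.404 in the sgLacZ libraries and 0.313, 0.298 and 0.237 in the sgKcna1 libraries. The highest sgKcna1 ratio was below the lowest sgLacZ ratio, that of replicate 3. *Fgf13* supplied between 84.0% and 91.6% of the summed factors, so the sum is mainly a statement about *Fgf13*. The 2 beta subunits summed to 104, 92 and 115 in the sgLacZ libraries and to 136, 126 and 125 in the sgKcna1 libraries, and per alpha subunit they came to 0.343 to 0.411 and 0.370 to 0.452, which overlapped.

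**Figure D3:**
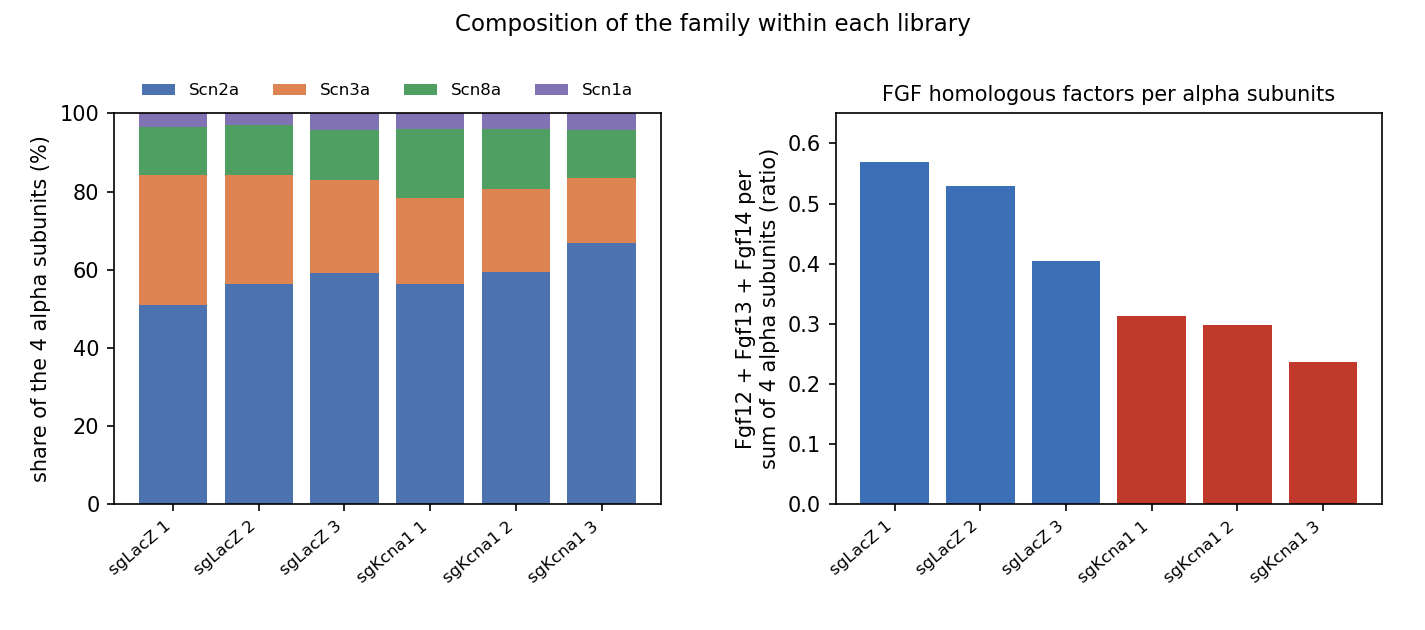
Left, share (%) of *Scn2a*, *Scn3a*, *Scn8a* and *Scn1a* in the sum of these 4 alpha subunits in each library. Right, ratio of the summed *Fgf12*, *Fgf13* and *Fgf14* to the summed alpha subunits in each library, in blue for sgLacZ and red for sgKcna1, with 1 bar per library and no error bar. The *Scn3a* share goes from 23.7% to 33.2% in sgLacZ and from 16.6% to 22.2% in sgKcna1, and the ratio from 0.404 to 0.569 and from 0.237 to 0.313.

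One library entered many of these comparisons. For all 9 genes, sgLacZ replicate 3 was the sgLacZ library nearest to the mean of the sgKcna1 libraries. It was also the nearest for 56.3% of the 9751 genes with a mean of at least 5, against 15.9% for replicate 1 and 17.0% for replicate 2, with 10.8% tied. This library was kept in the groups, and of the 9 genes *Fgf13* was the only 1 to pass in limma without it.

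The scale of the libraries also bore on the counts. Gm42418 alone took 19.1%, 19.5% and 16.3% of the total in the sgLacZ libraries and 16.3%, 20.2% and 15.3% in the sgKcna1 libraries, so it weighed on every CPM value. Upper-quartile rescaling moved the median log2 fold change of genes with a mean of at least 10 from -0.06 to 0.06, and median-of-ratios rescaling moved it to 0.03. No member changed sign under 13 alternatives. Under each of the 3 rescalings 6 of the 9 genes had groups that did not overlap, with *Scn2a* joining the higher ones. The number also rose over all 19504 genes tested, from 1752 higher and 2585 lower on the deposited scale. It was 3150 and 2272 after median-of-ratios rescaling, 3243 and 2179 after upper-quartile rescaling, and 2009 and 3172 without Gm42418. Relative to the median of genes with a mean of at least 10, the 3 factors were lower and *Scn8a* and *Scn3b* higher on the deposited scale. Rescaling whole libraries moves a gene and this median almost alike, so the same order under the 3 rescalings adds no further evidence.

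The wider machinery around the channel was described by lists of genes. For the scaffold of the axon initial segment and related anchors, 14 of 15 genes were tested and 0 passed the adjusted threshold in limma, with 8 at an unadjusted p under 0.05 (5 higher and 3 lower). Without sgLacZ replicate 3, 6 of them passed, beside 2711 of 19122 genes at that setting. Groups did not overlap for 9 of the 14, of which 6 were higher and 3 lower, and the median log2 fold change was 0.29. The lower ones were *Sptan1*, *Cntn1* and *Dlg4*. *Dlg4* had the smallest adjusted p of the list (0.056 in limma), at 338, 374 and 276 CPM in the sgLacZ libraries and 198, 217 and 227 in the sgKcna1 libraries. Over all genes tested, 22.2% did not overlap and 23.2% had an unadjusted p under 0.05, and among the 9751 genes with a mean of at least 5 the share that did not overlap was 37.5%. *Cntn2*, an axonal adhesion molecule, had the highest mean with 698, 895 and 1392 CPM in the sgLacZ libraries and 1871, 1459 and 1924 in the sgKcna1 libraries (log2 fold change 0.86, SE 0.25, limma adjusted p = 0.096). *Sptbn1*, a beta spectrin, had 554, 606 and 713 against 900, 858 and 812 (log2 fold change 0.46, SE 0.11, limma adjusted p = 0.065). *Cntnap1*, a paranodal protein, was listed at 0 in all 6 libraries.

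Ankyrin G, encoded by *Ank3* and the anchor that holds *Scn2a* and *Scn8a* channels at the initial segment, had 396, 444 and 506 CPM in the sgLacZ libraries and 644, 511 and 606 in the sgKcna1 libraries. These groups did not overlap either, with a log2 fold change of 0.39 (SE 0.13, limma adjusted p = 0.13). *Ank3* falls outside the rule for named genes and was chosen after its values were seen, as the partner that binds both subunits.

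For proteins that bind or modify the channels (among them casein kinase 2, other kinases and ubiquitin ligases), 21 of 22 genes were tested and 0 passed in limma. At an unadjusted p under 0.05 there were 7, all lower in sgKcna1, and groups did not overlap for 9, all lower, with a median log2 fold change of -0.13. Among the 9751 genes with a mean of at least 5, groups did not overlap for 1405 that were higher and 2256 that were lower, which is 37.5% in both directions. Of the same 9751 genes, 3674 had an unadjusted p under 0.05 in limma, 1428 higher and 2246 lower. Without sgLacZ replicate 3, 3 passed in limma, 1 higher and 2 lower, beside 2711 of 19122 genes. After median-of-ratios rescaling the groups that did not overlap numbered 1 higher and 6 lower (median -0.05), against 3150 and 2272 over all genes tested. After upper-quartile rescaling, which also moved the median of all genes, they numbered 2 and 3 (median -0.02), against 3243 and 2179. Without Gm42418 they numbered 0 and 10 (median -0.15), against 2009 and 3172. Among the highest means of this list was *Map1b*, a microtubule-associated protein, at 2030, 2477 and 2881 CPM in the sgLacZ libraries and 2974, 2546 and 2716 in the sgKcna1 libraries. *Rangrf* was listed at 0.

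Of 11 regulators of sodium channel transcripts, 0 passed in limma, 3 had an unadjusted p under 0.05 (23.2% of all genes tested did) and the median log2 fold change was 0.02. Without sgLacZ replicate 3, 1 passed, which was lower. The splicing factors *Rbfox2*, at 549, 532 and 560 against 559, 510 and 603, and *Rbfox1*, at 247, 283 and 272 against 315, 286 and 310, had the highest means. Of the 4 genes of the sodium leak channel 0 passed in limma and 1 had an unadjusted p under 0.05. This was *Fam155a*, an ancillary subunit, at 48, 44 and 45 against 35, 38 and 35 CPM (log2 fold change -0.33, limma adjusted p = 0.12), and *Unc79*, the other gene with a high mean, had 24, 20 and 17 against 21, 21 and 14.

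**Figure D4:**
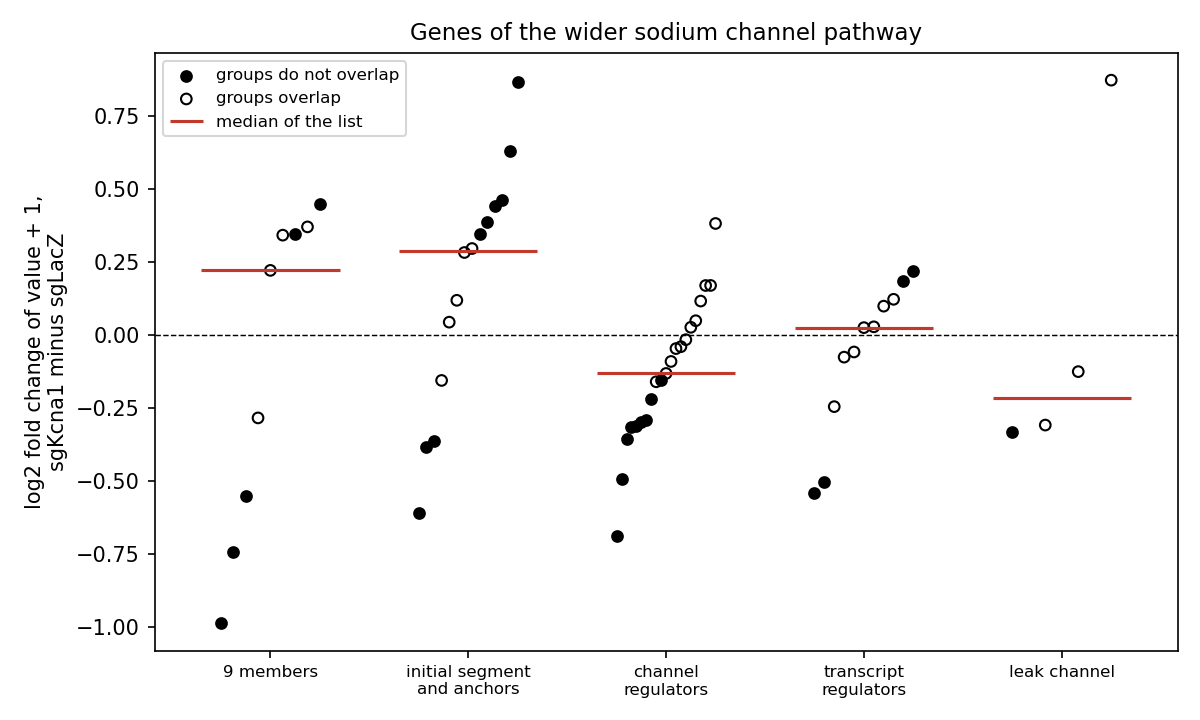
Log2 fold change of value + 1, sgKcna1 minus sgLacZ (vertical axis), of each gene of the 9 members and of 4 further lists (horizontal axis), 1 point per gene tested, filled where the groups did not overlap. The red line is the median of the list, which is 0.22 for the members, 0.29 for initial segment genes and -0.13 for channel regulators on the deposited scale.

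The genes whose values were most like those of *Fgf13*, the member with the smallest p, were found over the 6 libraries among genes with a mean of at least 10. They were *Rap2b* (Pearson r = 0.9982), a small GTPase, *Prkar1a* (r = 0.9982), a regulatory subunit of protein kinase A, and *Epc1* (r = 0.9971), a component of a histone acetyltransferase complex. The 6 values share the libraries and their scaling, and the likeness is a description with no test.

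The cultures held other cells, and their markers are given beside the members because several moved with the groups. In bulk RNA, fewer cells of a type and less RNA per cell cannot be told apart. Astrocyte markers summed to 1226 to 1672 CPM in the sgLacZ libraries and 754 to 815 in the sgKcna1 libraries. Of the 10, 4 (*Aqp4*, *Sox9*, *Aldoc* and *Fabp7*) passed lower in limma, against 158 of all 19504 genes tested. Groups did not overlap for 7 of 10, all lower. The share lower without overlap was 13.3% of all genes tested, and 2256 of the 9751 with a mean of at least 5. For *Gfap*, *Aldh1l1* and *S100b* the groups overlapped, and the estimate of *S100b* was positive. Markers of the oligodendrocyte lineage summed to 66 to 98 and 40 to 44, with *Olig2* passing lower and *Mag* at 0. Of its 7 genes tested, groups did not overlap for 1 that was higher (*Mbp*, a myelin protein, at 3, 3 and 2 against 7, 4 and 7) and 4 that were lower. Microglial markers summed to 22 to 25 and 53 to 72, with *C1qa* passing higher, and *Tmem119* and *P2ry12* at 0 in all 6 libraries. Cell cycle genes summed to 121 to 126 and 71 to 75, with 0 of 8 passing in limma and 7 at an unadjusted p under 0.05, all lower, against 23.2% of all genes tested in either direction. Without any 1 library other than sgLacZ replicate 3 no gene passed in limma, these markers included. The part of these cells in the values of the 9 genes was not tested.

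Neuronal markers were present in all 6 libraries. Pan-neuronal markers summed to 6105 to 6983 CPM in the sgLacZ libraries and 7157 to 8533 in the sgKcna1 libraries, a difference that rested on *Tubb3*, the neuronal tubulin, at 1752 to 2605 and 3221 to 4591. The other 7 genes summed to 4243 to 4387 in the sgLacZ libraries and 3936 to 4205 in the sgKcna1 libraries, the opposite direction. Of these 8 genes, 4 had a positive and 4 a negative log2 fold change. Excitatory markers (1215 to 1374 and 1159 to 1231) and inhibitory markers (270 to 296 and 258 to 308) overlapped between the groups in their sums. Single genes separated in both directions within these lists, with 2 higher and 1 lower of 6 excitatory markers and 1 higher and 3 lower of 7 inhibitory markers whose groups did not overlap, against 22.2% of all genes tested and 37.5% of those with a mean of at least 5. Hippocampal markers summed to 1822 to 1936 and 1667 to 1946, and cortical layer markers to 396 to 464 and 333 to 370. Genes of both lists were thus detected, but whether these lists tell the regions apart was not tested. The region named in the labels was not settled by them. The 0 genes that passed among the pan-neuronal, excitatory, inhibitory, hippocampal and cortical lists in limma stood beside 4, 3, 4, 2 and 3 genes at an unadjusted p under 0.05, out of 8, 6, 7, 6 and 6 genes and against 23.2% of all genes tested.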

How the data were processed

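Libraries were made by the authors with the QuantSeq 3′ kit from polyA RNA. The methods name Bowtie2 and NCBI37/mm9, whereas the submitters' processing notes list STAR 2.7, featureCounts, DESeq2 and mm10, and the scaling is not given in the sources used here. The files deposited by the authors hold 1 score per gene, a whole number taken here as a rounded CPM value from the library totals. Its variance between sgLacZ replicates was 0.7046 times the mean at means from 4 to 8, below that of raw counts. A count test was planned and does not apply to such values.

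Groups came from the sample titles. limma 3.58.1 (R 4.3.3; group as the only factor, intensity trend) was run on log2(value + 1) of the 19504 genes above 0 in at least 1 library, with Benjamini-Hochberg adjustment and a threshold of 0.05. The fit was tested on simulated data. Alternatives were another pseudocount (0.5), a minimum mean of 1, 3 rescalings, no trend, the replicate number as a block and each library left out.

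The 9 genes and the lists were chosen with earlier results of these data known. Named genes were the 9 members, *Kcna1*, other sodium channel subunits, the 2 genes with the highest mean and any past the threshold in each pathway list, the 3 genes most like *Fgf13*, and cell type markers past the threshold or at 0. Some genes this rule names are not reported here. Exceptions are *Ank3*, *Dlg4*, *Sptan1*, *Cntn1*, *Tubb3*, *Mbp*, *Gfap*, *Aldh1l1*, *S100b* and Gm42418, named after their values were seen, as was the neuronal sum without *Tubb3*. Positions and promoters are from RefSeq GRCm38.p6, where 34696 of 50508 symbols matched, and transcript ends from GENCODE vM1. Promoters and ends were read with Python 3.11.15.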

Additional observations from a re-analysis of the deposited data

How the results depend on the processing

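The log2 fold change of each of the 9 genes kept its sign under 13 alternatives (*Fgf13* from -0.65 to -0.44). *Fgf13*, at -0.55 in the main test, passed the threshold when genes needed a mean of at least 1 (-0.55, 1 member called), after rescaling without Gm42418 (-0.57, 1 member called) and without sgLacZ replicate 3, and its adjusted p in limma ranged from 0.032 to 0.23. With single libraries left out it went from -0.65 to -0.47 and the members called from 0 to 1. Of all genes, 226 were called in the main test, 10 with a pseudocount of 0.5, 1543 with a mean of at least 1, 1719 after median-of-ratios rescaling, 868 after upper-quartile rescaling, 1808 without Gm42418, and 0 to 2711 with libraries left out, where 2711 were called without sgLacZ replicate 3 and 0 without each of the other 5. The share of higher calls was 68 of 226 in the main test, 962 of 1719 after median-of-ratios rescaling, 482 of 868 after upper-quartile rescaling, 568 of 1543 with a mean of at least 1, 117 of 201 with no intensity trend and 5 of 10 with the lower pseudocount. Of the initial segment genes, 0 were called in the main test, 3 with a mean of at least 1, 6 after median-of-ratios and 3 after upper-quartile rescaling, 4 without Gm42418 and 0 to 6 with libraries left out (6 without sgLacZ replicate 3). Of the channel regulators the counts were 0, 2, 1, 0, 2 and 0 to 3 in the same order, again highest without sgLacZ replicate 3, and of the transcript regulators 1 was called without Gm42418 and 0 to 1 with libraries left out. Where a mean of at least 1 was asked for, 13604 genes were tested. The cause of the other differences was not tested. The shares of *Scn2b* and *Scn3b* among the beta subunits, which differed between the groups by -1.52 and 1.52 percentage points, turned to 0.355 and -0.355 without sgKcna1 replicate 1. The other 7 shares within the family kept their direction with each library left out.

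Whether replicate numbers pair the libraries was not settled by the check used. Deviations from the group means correlated at 0.0143, 0.114 and 0.154 between same-numbered libraries and at -0.156 to 0.0989 between differently numbered ones. Each sgKcna1 library correlated most with the sgLacZ library of its own number, but all these correlations were weak. A block also leaves fewer degrees of freedom for the test. With the replicate number as a block, 0 genes and 0 members were called, and *Kcna1* kept its log2 fold change of 1.83 with an adjusted p of 0.11. *Kcna1* also missed the threshold when any single library other than sgLacZ replicate 3 was left out, with 1.73 to 1.99. Testing all listed genes without a filter is not reported, because most residual variances were then exactly 0 and limma warned that its estimates were unreliable. Depth per library is unknown, rounding to whole units weighs most on the lowest values (*Fgf12* and *Fgf14* in the sgKcna1 libraries), and 3 libraries per group limit every test.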
